A study of Mus musculus with 20 samples.

Results

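Hoxa7, Hoxa9, Hoxa13, Hoxb7, Hoxd10 and Osr2 are 6 of the 12701 genes that were counted, by sequencing of mRNA, in mouse proximal colon (PC). The 6 genes were picked by name, on measured values: in earlier work with these counts they set 1 library of the control diet apart from the other 19, and Hoxa9 stood out at 10% resistant potato starch (RPS). Their levels over the libraries and diets are therefore given as a description, with no test. All 20 libraries came from C57BL/6 mice weaned at 3 weeks of age onto the Total Western Diet (TWD), a feed built to mimic what Americans eat. After 6 weeks the mice stayed on the TWD (0% RPS) or moved to the TWD with 2, 5 or 10% RPS for 3 weeks, and each diet had 5 libraries. So all 4 diets share the TWD, and the 0% RPS group is a Western diet control, not a chow control. The PC was taken just beyond the cecum as a whole piece of wall, with epithelium, muscle and connective tissue together. Fewer cells of a type and less RNA per cell cannot be told apart in such samples. The labels give the same segment for every library, so how the 6 genes vary along the colon was not measured here. Whether the tissue of the library that stood apart was cut at the same place as the others was not tested. The number of replicates is 5 in each diet unless another number is given, and the labels do not say whether mice shared cages or litters.

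Hox genes encode homeodomain transcription factors that lie in clusters, and their order along the chromosome follows the order of the body regions in which they act in the embryo. Genes near the posterior end of a cluster, such as Hoxa13, pattern the hindgut and the cloaca, while genes of the middle groups act farther forward. Much of this code persists in adult connective tissue, muscle and gut epithelium, where it records the origin of a segment. Osr2 belongs to the odd-skipped related family of zinc finger transcription factors, known from palate, limb and tooth development.

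In the GRCm39 build, the 3 HoxA members lie on chromosome 6 on the minus strand, Hoxa7 at chr6:52191471-52198834, Hoxa9 at chr6:52200080-52208069 and Hoxa13 at chr6:52234602-52237822. Hoxb7 lies in the HoxB cluster at chr11:96177449-96180988, Hoxd10 in the HoxD cluster at chr2:74522230-74525449 and Osr2, outside any Hox cluster, at chr15:35296196-35303673, all 3 on the plus strand. Hoxa7 and Hoxb7 are paralogs of the same group, and Hoxa9 and Hoxd10 are neighbours in group number. The homeobox, the stretch that codes for the DNA-binding homeodomain, is printed for 1 member of each cluster, 5′ to 3′ on the coding strand, from the last coding exon. It shows how far these 3 genes differ in the stretch that Hox genes conserve most. The clusters are those the 5 Hox members lie in. Capitals mark the 110 bases at which the 3 are not all the same.
Hoxa13, chr6:52235908-52236087: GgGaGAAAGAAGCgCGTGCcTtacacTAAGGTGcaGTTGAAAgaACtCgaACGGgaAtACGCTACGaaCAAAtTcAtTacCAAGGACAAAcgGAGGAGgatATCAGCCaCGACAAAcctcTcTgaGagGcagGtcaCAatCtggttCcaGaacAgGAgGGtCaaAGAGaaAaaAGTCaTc
Hoxb7, chr11:96180211-96180390: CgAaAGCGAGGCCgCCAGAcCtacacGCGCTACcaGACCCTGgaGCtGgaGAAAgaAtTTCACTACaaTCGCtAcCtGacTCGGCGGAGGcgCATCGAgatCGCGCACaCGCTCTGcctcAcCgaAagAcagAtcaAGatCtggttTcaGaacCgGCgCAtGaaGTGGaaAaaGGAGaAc
Hoxd10, chr2:74524485-74524664: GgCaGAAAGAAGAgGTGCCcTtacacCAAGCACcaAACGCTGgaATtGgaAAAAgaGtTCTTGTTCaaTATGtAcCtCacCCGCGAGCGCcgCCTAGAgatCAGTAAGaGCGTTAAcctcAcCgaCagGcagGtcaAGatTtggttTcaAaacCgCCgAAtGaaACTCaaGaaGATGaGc

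Of the 180 bases, Hoxb7 and Hoxd10 share 60.6%, Hoxa13 and Hoxd10 54.4% and Hoxa13 and Hoxb7 49.4%. The longest stretches without a difference are 9, 10 and 8 bases, in that order, all shorter than the 50-base reads. The homeoboxes of Hoxa7 and Hoxa9 were not compared, so the paralogs Hoxa7 and Hoxb7 are not covered by these values. Osr2, a zinc finger factor, has no homeobox.

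Some reads of the members could belong to other annotated genes. Of the 50-base windows in the exons of Hoxa7, 18.7% also lie in exons of the antisense RNA Hoxaas3 on the other strand. For Hoxa9 this holds for 7.61%, with the noncoding genes Gm52902 and Gm68361. On its own strand, Hoxd10 shares 3.10% of its windows with Gm28309 and Hoxa9 0.646% with Mir196b. Hoxa13, Hoxb7 and Osr2 share none. Among the Hox genes that are not members, sharing reached 48.1% for Hoxb3 on the other strand and 46.5% for Hoxd4 on its own. Whether the counting used the strand, and how it treated reads with several matches, is not given in the sources used here. The use of strand bears on the opposite-strand windows of Hoxa7 and Hoxa9. The treatment of such reads bears on the same-strand windows of Hoxa9 and Hoxd10. The reads of these genes in these windows are uncertain to that extent.

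Of the members, Hoxb7 and Osr2 had the highest levels and Hoxa13 the lowest in the 19 libraries other than replicate 2 of the 0% RPS diet. Levels between genes are given as normalised counts (counts divided by a library's size factor) per kb of exon, over these 19 libraries. The level of Hoxb7 was 858 ± 88.0 (SD, n = 19) and that of Osr2 813 ± 83.0, and these neighbours overlapped, with Hoxb7 above Osr2 in 15 of the 19 libraries. Hoxd10 followed at 217 ± 31.0 and Hoxa7 at 144 ± 33.4, Hoxd10 being the higher in 18 of 19 libraries. Hoxa9 came next at 51.7 ± 22.1 and Hoxa13 was lowest at 26.2 ± 14.7. Although the ranges of Hoxa7, Hoxa9 and Hoxa13 touched between libraries, Hoxa7 was above Hoxa9 and Hoxa9 above Hoxa13 in 19 of 19. In replicate 2 of the 0% RPS diet the order was another one, with Hoxa7 at 562, Hoxa9 at 434, Hoxa13 at 408, Hoxb7 at 223, Osr2 at 96.5 and Hoxd10 at 36.5.

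Among the 21 Hox genes of the table, 9 belong to HoxA, 8 to HoxB and 4 to HoxD. The other 18 of the 39 mouse Hox genes, the whole of HoxC among them, were not analysed here. Over the same 19 libraries, Hoxb9 had the highest level per kb of the 21, at 1281, and Hoxb2 the lowest, at 21.5. Hoxb7 ranked 3 among the Hox genes and Osr2 fell between Hoxb7 and Hoxb8. In these libraries the HoxB genes made up between 70.0 and 82.6% of the summed Hox level per kb, the HoxA genes between 8.59 and 19.8% and the HoxD genes between 8.39 and 11.3%.

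**Figure D1:**
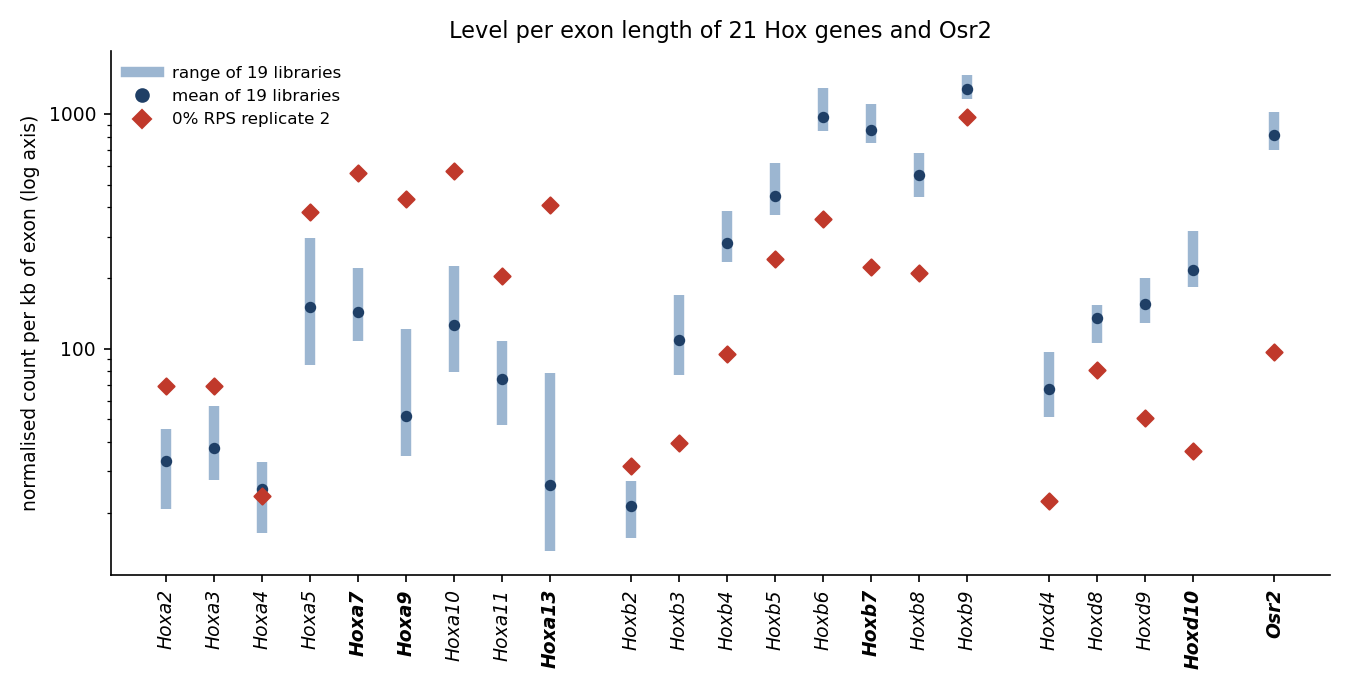
Level of the 21 Hox genes and Osr2 in normalised counts per kb of exon (log axis), with the range and mean of 19 libraries as bars and dots and replicate 2 of the 0% RPS diet as diamonds; members are in bold. The diamonds lie above the bars for 8 of 9 HoxA genes and below them for 7 of 8 HoxB genes, all 4 HoxD genes and Osr2.

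Replicate 2 of the 0% RPS diet stood apart in all 6 members, and its depth of 25237543 counts was within the range of the 20 libraries (20581013 to 35083751). The normalised counts of Hoxa7 at 0% RPS were 434, 1619, 423, 619.6 and 380.5 for replicates 1 to 5. Those of Hoxa9 were 264, 2422, 257, 524 and 346, and those of Hoxa13 68.0, 1024, 61.8, 101 and 79.8. Replicate 2 was thus the highest of its group for each of the HoxA members, by a wide margin. Against the median of the other 19 libraries, its Hoxa7 was 4.15-fold, its Hoxa9 9.93-fold and its Hoxa13 17.5-fold higher. The 3 folds were larger towards the posterior end of the cluster, but the cluster as a whole did not follow that order, since Hoxa10 (4.88-fold) and Hoxa11 (2.91-fold) lie between Hoxa9 and Hoxa13. Even against the highest of the other 19, replicate 1 of the 2% RPS diet in each case, these 3 genes were 2.55-fold, 3.57-fold and 5.17-fold higher.

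The other members went the opposite way in that library. At 0% RPS, Hoxb7 had normalised counts of 1264, 344, 1304, 1509 and 1697 for replicates 1 to 5. Hoxd10 had 459.7, 67.7, 386, 399 and 589, and Osr2 had 5403, 652, 5382, 5219 and 5894. Replicate 2 was the lowest library in all 3, and the other 4 libraries did not come near it. Its Hoxb7 was 3.79-fold, its Hoxd10 5.84-fold and its Osr2 8.33-fold below the median of the other 19 libraries. The raw counts behind these low values were 330, 65 and 626. Members were in part selected for this pattern. For comparison, of the 12348 genes with a mean normalised count of 10 or more, 13.9% were above all other 19 libraries in replicate 2 and 12.4% below, while 2.2% were 2-fold or more above their median and 1.69% 2-fold or more below.

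**Figure D2:**
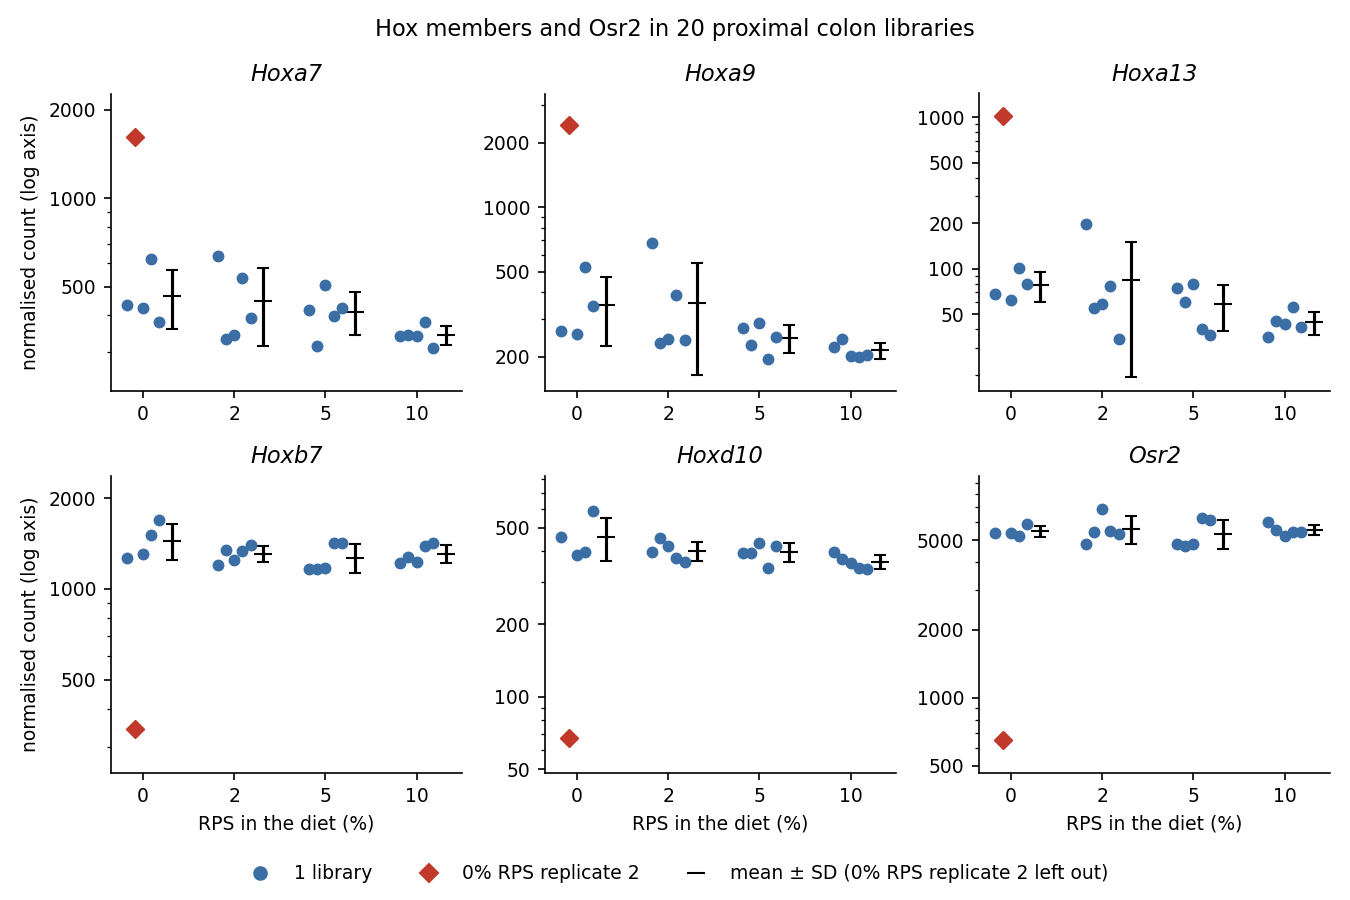
Normalised counts (log axis) of the 6 genes in each of the 20 libraries by percentage of RPS; dots are libraries, the red diamond is replicate 2 of the 0% RPS diet, and black bars are mean ± SD without it. The diamond is at 1619, 2422 and 1024 for Hoxa7, Hoxa9 and Hoxa13 and at 344, 67.7 and 652 for Hoxb7, Hoxd10 and Osr2, outside the other 19 libraries in each panel.

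The 16 Hox genes that are not members split by cluster in the same library. Of the HoxA genes beside Hoxa10 and Hoxa11, Hoxa5 was 2.62-fold and Hoxa2 2.08-fold above the median of the other 19, and Hoxa3 1.92-fold. Hoxa4 was within their range. Counting members, 8 of 9 HoxA genes were above all 19 other libraries, with a median log2 ratio of 1.54, and 7 were at least 2-fold higher. In HoxB, 7 of 8 genes were below all 19, with a median log2 ratio of −1.41, and Hoxb2 alone was above them, by 1.43-fold over the median. All 4 HoxD genes were below all 19, with ratios from −2.55 for Hoxd10 to −0.76 for Hoxd8.

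Hoxa13, Hoxa9 and Hoxa10 differed most in HoxA, ahead of Hoxa7, while Hoxb7 differed most in HoxB and Hoxd10 most in HoxD. The members were picked with these differences known. The HoxA genes held 53.7% of the summed Hox level per kb in replicate 2, against a highest value of 19.8% in the other 19 libraries. The HoxB genes held 42.6% and the HoxD genes 3.76%, both under the lowest value of the other 19. The summed level of all 21 genes, 5076 per kb, was inside the range of 5047 to 7107 of the others.

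**Figure D3:**
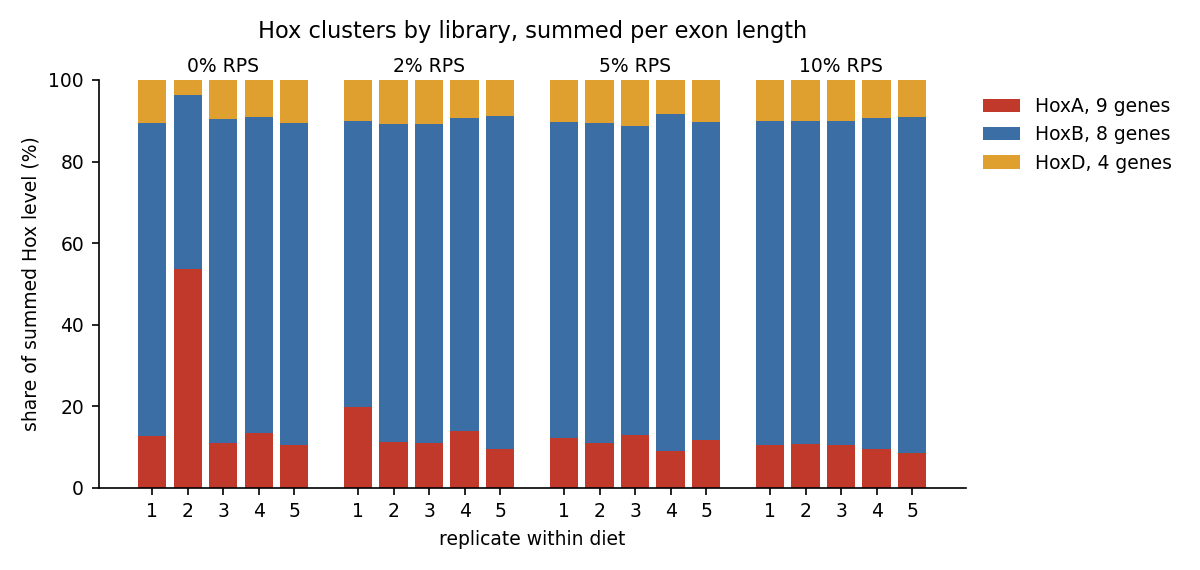
Share of the summed Hox level per kb of exon (%) held by the HoxA, HoxB and HoxD genes in each of the 20 libraries, ordered by diet and replicate. HoxA holds 53.7% in replicate 2 of the 0% RPS diet, 19.8% in replicate 1 of the 2% RPS diet, and less in the other 18 libraries.

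The noncoding RNAs of the clusters went with their neighbours in replicate 2 of the 0% RPS diet. Hoxa11os, the antisense RNA of Hoxa11, had a normalised count of 2974 there and between 175 and 690.4 in the other 19 libraries. Hoxaas3, which overlaps Hoxa7, had 229 against at most 189.9. Hoxb5os had 297 against at least 433. Among the TALE cofactors, the Meis, Pbx and Pknox homeodomain proteins that bind DNA together with Hox proteins, 0 of 7 differed from the median by 2-fold. Of 14 regulators of Hox genes, the retinoic acid synthesis enzymes Aldh1a2 (596 against 40.8 to 214) and Aldh1a1 (3017 against 5337 to 11392) were the ones beyond 2-fold. The Cdx factors and the chromatin proteins Kmt2a, Ezh2, Eed, Suz12, Bmi1 and Cbx2 were not. Of 16 regional transcription factors of the gut, Osr2 and its relative Osr1 (64.6 against 95.2 to 237) were 2-fold or more below the median and none was 2-fold above it.

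The tissue markers of this library also differed from the others. The summed level per kb of 10 fibroblast markers was 2.02-fold, of 10 smooth muscle markers 1.66-fold and of 3 B and plasma cell markers 3.85-fold the median of the other 19, each the highest of the 20 libraries. In the B and plasma cell list, Jchain had a normalised count of 11831 against 1540 to 5339. Cd79a was within the range of the other libraries, and Mzb1 was low everywhere, at 8.33 against at most 6.78. The sum of 12 colon epithelium markers was the lowest of the 20, at 0.594 of the median of the other 19. This sum is not weighted, so genes of high level, Car1 among them, weigh most in it. Car1, a carbonic anhydrase of colonocytes, had a normalised count of 70115 against 239322 to 483922 in the other 19 libraries, and the microvillus gene Vil1 had 18183 against at least 19273. The chloride exchanger gene Slc26a3 of the same list went the other way, with 12364 against 3571 to 7065. The other 9 genes of the list, among them Epcam, Cdh1, Krt8, Cdx1 and Cdx2, were within their ranges. None of the 12 epithelial markers was at 0 in any library, and none of the 7 squamous and anal canal markers was measured. Of genes known from small intestinal absorption, the bile acid binding protein Fabp6 (44.8 against 549 to 8504) and the bile acid transporter Slc10a2 (1092 against 8598 to 17311) were far below the other libraries. Sis (42.7 against 221 to 1554) was below them too, and the peptide transporter Slc15a1 (553 against 53.5 to 374) was above them. Apoa1, Fabp1, Fabp2 and Alpi, the rest of the 8 measured genes of this list, were within their ranges. The part of any of these in the Hox and Osr2 values was not tested.

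Apart from replicate 2 of the 0% RPS diet, 1 more library stood out in the HoxA members. In replicate 1 of the 2% RPS diet, Hoxa7, Hoxa9 and Hoxa13 had normalised counts of 636, 678 and 198, each the highest of the other 19 libraries. In the same library Hoxb7 (1205), Hoxd10 (399) and Osr2 (4805) lay within the values of their diet or at their lower edge. Its smooth muscle marker sum was second of the 20 and its enteric neuron and glia marker sum was the highest. The part of these markers in its HoxA values was not tested.

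Across the diets the means of the HoxA members and of Hoxd10, with replicate 2 of the 0% RPS diet set aside, were lowest at 10% RPS. Those of Hoxb7 and Osr2 differed little. At 2% RPS the normalised counts of Hoxa7 were 636, 333, 342, 536 and 390.3 for replicates 1 to 5, at 5% they were 418, 315, 505, 397 and 422, and at 10% they were 339, 344, 341, 379.8 and 310.2. Without replicate 2, the 0% RPS mean was 464 ± 106 (SD, n = 4), and the means at 2, 5 and 10% were 447 ± 133, 411 ± 67.9 and 343 ± 24.8. The diets overlapped except at 10%, where all 5 libraries were under the lowest of the 0% RPS libraries, by as little as 379.8 against 380.5.

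Hoxa9, a gene of the posterior part of the cluster also known from blood stem cells, had the values 678, 232, 243, 389 and 241 at 2% RPS. It had 273, 228, 287, 195 and 247 at 5% and 223, 244, 202, 201 and 204 at 10%. The 5 libraries at 10% lay in a narrow band below every 0% RPS library, while those at 2 and 5% overlapped with 0%. Means were 348 ± 124 (SD, n = 4) at 0% without replicate 2, then 357 ± 191, 246 ± 36.7 and 215 ± 18.7.

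Hoxa13 had 198, 55.3, 58.3, 77.0 and 34.5 at 2% RPS. At 5% it had 74.7, 60.1, 79.6, 39.9 and 36.7, and at 10% 35.5, 45.2, 43.0, 56.2 and 41.6. Its highest library at 10%, 56.2, was below the lowest at 0%, 61.8, and the diets between overlapped with both. The means were 77.7 ± 17.3 (SD, n = 4) at 0% without replicate 2, then 84.6 ± 65.2, 58.2 ± 19.5 and 44.3 ± 7.58. For these 3 members, all 10% RPS libraries were thus below all 4 of the 0% RPS libraries other than replicate 2. That was so for 2.61% of the 12348 genes with a mean of 10 or more, and the members were chosen with these values known, so nothing is read from the count. Of the 16 other Hox genes, 1 had such a gap (Hoxa5, 244 at most against 245 at least), and no Hox gene had one at 2 or 5% RPS.

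Hoxb7 ranged from 1205 to 1397 at 2% RPS, from 1161 to 1422 at 5% and from 1219 to 1418 at 10%, and the other 0% RPS libraries from 1264 to 1697. Hoxd10, which acts in limb and spinal cord patterning, ranged from 361 to 453, from 339.9 to 432 and from 339 to 399 at these diets, and from 386 to 589 at 0%. Osr2 ranged from 4805 to 6904, from 4728 to 6271 and from 5222 to 5992, and from 5219 to 5894 at 0%. These 3 genes overlapped between all diets once replicate 2 was set aside. They also varied less: the coefficient of variation over the 19 libraries was 10.3% for Hoxb7, 14.3% for Hoxd10 and 10.2% for Osr2, and 23.2, 42.7 and 56.3% for Hoxa7, Hoxa9 and Hoxa13. The means of Hoxd10 were 458 ± 92.6 (SD, n = 4) at 0% without replicate 2, then 401 ± 36.5, 396 ± 35.5 and 362 ± 24.7. Of its 5 libraries at 10% RPS, 4 were below the lowest of those 0% RPS libraries.

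Replicate 2 set the size of the difference from 0% RPS. With all 20 libraries, the log2 fold change at 10% RPS was −1.02 ± 0.30 (SE) for Hoxa7, −1.83 ± 0.52 for Hoxa9 and −2.59 ± 0.69 for Hoxa13. Without that library the values were −0.44 ± 0.19, −0.70 ± 0.27 and −0.81 ± 0.38. The direction stayed lower and the sizes shrank by more than their errors. At 5% RPS the same 3 genes had −0.76, −1.63 and −2.20 with all libraries and −0.18, −0.50 and −0.42 without replicate 2. At 2% RPS they had −0.64, −1.10 and −1.66 with it and −0.05, 0.04 and 0.12 without it. The fit without replicate 2 kept replicate 1 of the 2% RPS diet, the highest of the other 19 libraries in these genes. Leaving out only that replicate 1 gave −0.80, −1.47 and −2.25, and leaving out both was not tested. The comparisons with 0% RPS share its libraries and are not independent of each other. Set against 2% RPS, which does not use replicate 2 in the difference, 10% RPS gave −0.39 ± 0.30, −0.73 ± 0.52 and −0.93 ± 0.69, or with the smaller spread of the 19 libraries −0.39 ± 0.18, −0.73 ± 0.26 and −0.94 ± 0.36. Both sets of values keep replicate 1 of the 2% RPS diet, with normalised counts of 636, 678 and 198 in these genes. The other 2% RPS libraries reached at most 536, 389 and 77.0, so that replicate 1 raised the 2% RPS side.

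For Hoxb7, Hoxd10 and Osr2, leaving replicate 2 out moved the values the other way. At 10% RPS they were 0.09 ± 0.24, −0.07 ± 0.29 and 0.30 ± 0.35 with all libraries and −0.14 ± 0.09, −0.34 ± 0.12 and 0.02 ± 0.10 without it. At 2 and 5% RPS, their values lay between 0.05 and 0.31 with all libraries and between −0.21 and 0.03 without it. Hence the direction of Hoxb7 turned with this library at every diet, that of Hoxd10 at 2 and 5%, and that of Osr2 at 5%.

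**Figure D4:**
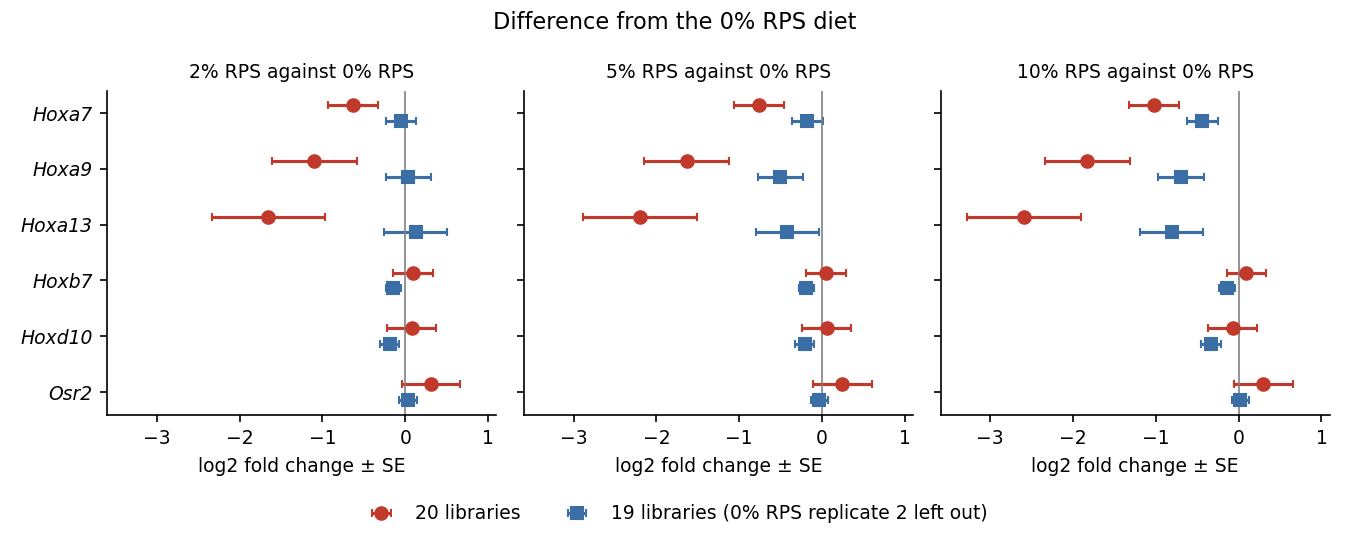
Log2 fold change ± SE of the 6 genes at 2, 5 and 10% RPS against 0% RPS from DESeq2, with all 20 libraries (red circles) and with replicate 2 of the 0% RPS diet left out (blue squares). For Hoxa7, Hoxa9 and Hoxa13 the squares lie nearer to 0, at −0.44, −0.70 and −0.81 for 10% RPS.

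A gene counted as changed in DESeq2 when its adjusted p was at most 0.05 and its fold change at least 1.5. At 10% RPS, 2 members, Hoxa7 and Hoxa9, were called lower, and 0.381% of the 12321 genes tested were called lower. The contrast helped to choose the members, and nothing is read from this count. Hoxa13 received no p in any diet comparison, because DESeq2 withholds it where 1 library dominates a fit. At 2 and 5% RPS, 0 members were called, against 0.0239% and 0.438% of 12561 genes called in either direction. In the comparison of 10 with 2% RPS, 0 members and 0.0557% of 12561 genes were called. With replicate 2 left out, 0 of 6 members were called at 10% RPS, where 0.584% of 12327 genes were called lower. In edgeR's quasi-likelihood test with all 20 libraries, 0 members were called at any diet, and at 10% RPS 3 of 6 were lower at an unadjusted p under 0.05, beside 8.65% of all genes.

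Of the 21 Hox genes, 20 received an adjusted p at 10% RPS in DESeq2. Of these, 3 were called lower, Hoxa5 beside the members Hoxa7 and Hoxa9, and 0 higher. Over all genes, 113 of 12321 were called in either direction, and 0.381% of the 12321 were called lower. The members were chosen with this contrast known, and nothing is read from their part of the count. The median log2 fold change of the 21 was −0.11, beside −0.000048 over all genes tested. Without replicate 2 it was −0.27, beside 0.0044. Hoxa5, a gene nearer the anterior end of HoxA with known roles in lung and gut mesenchyme, had normalised counts of 306, 716.4, 245, 323 and 299 at 0% RPS and 215, 244, 216, 226 and 159 at 10%. Its log2 fold change was −0.83 ± 0.27 (adjusted p = 0.0432 in DESeq2, 0.115 in edgeR). Leaving out replicate 2 gave −0.47 ± 0.22 (adjusted p = 0.172 in DESeq2). No Hox gene was then called at 10% RPS by either tool, though 8 of 21 had an unadjusted p under 0.05 and were lower in each. Of all genes, 9.72% in DESeq2 and 10.0% in edgeR were lower at that p. The calls were also lost, with folds of about the same size, without replicate 4 of the 0% RPS diet or without replicate 3 or 5 of the 10% RPS diet. In these 3 fits 0 Hox genes passed, the log2 fold change of Hoxa7 was −1.06, −1.02 and −0.99, and that of Hoxa9 was −1.94, with no p given, −1.81 and −1.81. Without replicate 3 of the 0% RPS diet 6 did, all in HoxA, and without replicate 1 of that diet 5 did. The shares of all genes called in these fits are not given here, and nothing is read from the counts.

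At 2 and 5% RPS and in the comparison of 10 with 2% RPS, 0 Hox genes were called by DESeq2 or edgeR. At an unadjusted p under 0.05, DESeq2 counted 3, 4 and 1 of 20 and edgeR 3, 5 and 1 of 21, all of them lower. Over all genes the shares lower at that p were 3.44, 7.39 and 4.16% in DESeq2 and 3.28, 6.69 and 4.21% in edgeR. As a trend over the percentage of RPS with no fold threshold, 4 Hox genes fell in DESeq2, namely Hoxa3, Hoxa5, Hoxa7 and Hoxa9, beside 1.89% of 12545 genes that fell. Hoxa7 and Hoxa9 were chosen with their values over these diets known, and nothing is read from their part of the count. The slope of Hoxa5 was −0.09 ± 0.02 log2 units per percent of RPS (adjusted p = 0.0164 in DESeq2). With replicate 2 left out, Hoxa5 (−0.06 ± 0.02, adjusted p = 0.0356 in DESeq2) and Hoxa9 stayed past the threshold, while 2.64% of 12560 genes fell. edgeR called 0 slopes among the Hox genes with all 20 libraries, and 7 of 21 had an unadjusted p under 0.05 and fell, beside 9.33% of all genes.

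Of the 7 TALE cofactors and the 14 regulators of Hox genes, 0 were called in DESeq2 at 2, 5 or 10% RPS, with or without replicate 2. Their median log2 fold changes at 10% RPS were −0.07 and −0.05. Of the 16 regional transcription factors, Nkx3-2, a homeodomain factor of gut and spleen mesenchyme, was called lower at 10% RPS, beside 0.381% of 12321 genes. Its mean normalised count was 274 ± 42.7 (SD) at 0% and 166 ± 16 at 10%, with a log2 fold change of −0.72 ± 0.18 (adjusted p = 0.00502 in DESeq2). It was −0.65 ± 0.19 without replicate 2, whose value of 327 was inside the range of the other libraries.

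Of the cell type marker lists, 0 of 10 smooth muscle, 10 fibroblast, 6 endothelium and 12 colon epithelium genes were called in DESeq2 at 10% RPS with all libraries. Their median log2 fold changes moved from −0.20, −0.22, −0.24 and 0.16 with all libraries to −0.03, 0.02, −0.16 and 0.17 without replicate 2. Over all genes, 113 of 12321 were called at 10% RPS in either direction, and 0.381% were called lower. Without replicate 2, 201 of 12327 were called at 10% RPS, with 0.584% called lower, and 104 of 12327 at 5% RPS. The goblet cell mucin Muc2 rose in the comparison without replicate 2 (0.70 ± 0.17, adjusted p = 0.00225 in DESeq2). The glial filament gene Gfap rose at 10% RPS by 0.61 ± 0.16 (adjusted p = 0.00797 in DESeq2), the one call among 10 enteric neuron and glia genes, whose median was −0.23. Another rise was that of Upk1b, of the mesothelium list, at 0.62 ± 0.20 (adjusted p = 0.0482 in DESeq2). Of 8 small intestine enterocyte genes, Slc15a1 and Apoa1, the main protein of high-density lipoprotein, fell at 10% RPS, with log2 fold changes of −1.69 and −2.81, and the median of the list was −0.51. Without replicate 2, which was above the other 19 libraries in Slc15a1, these 2 values were −1.41 and −2.46. Slc15a1 also fell at 5% RPS, at −1.60 with all libraries and −1.32 without replicate 2. At 5% RPS with all libraries, 0.438% of 12561 genes were called in either direction. With replicate 2 left out, the sucrase gene Sis fell too, by 1.34 at 5% and 1.14 at 10% RPS, and the B cell receptor gene Cd79a rose by 1.35 at 10%. For the adipocyte list, 0 of 5 genes were called, with medians of −1.65 at 5% and 1.21 at 10% RPS, and its summed level per kb reached 9638 in 1 library at 10% RPS against at most 1739.8 at 0%. Of the single urogenital gene, the 3 skeletal muscle genes and the 3 noncoding RNAs of the Hox clusters that were measured, 0 were called at 10% RPS. With all libraries, 2 of these 3 noncoding RNAs received an adjusted p, so the third could not be called there.

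With replicate 2 included, the values of the members across libraries followed its 2 directions. The members were chosen because that library set them apart, so correlations that include it are no test. Over 20 libraries, the Pearson r of log2(normalised count + 1) was 0.92 to 0.96 within the 3 HoxA members and 0.93 to 0.96 among Hoxb7, Hoxd10 and Osr2. Between these groups it was −0.87 to −0.74. The 20 points share their normalisation and diet groups, and 1 of them lies far from the rest. Spearman's rho, less moved by a single point, was 0.66 to 0.83 within the HoxA members, 0.07 to 0.57 among the other 3, and −0.53 to 0.37 between the groups. So the tight relation of Hoxb7, Hoxd10 and Osr2, and most of the opposition between the groups, rested on replicate 2.

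Over the other 19 libraries, Hoxa7 and Hoxa9 had a Pearson r of 0.85 (rho 0.76), Hoxa9 and Hoxa13 of 0.87 (rho 0.80), and Hoxa7 and Hoxa13 of 0.74 (rho 0.60). Leaving out replicate 1 of the 2% RPS diet as well gave 0.80, 0.76 and 0.62 over 18 libraries. As deviations from the diet means over 19 libraries, the 3 pairs had 0.83, 0.83 and 0.66. The relation among the HoxA members was therefore present within diets over 19 libraries and, taken separately, across diets without both outlying libraries. Deviations within diets without both libraries were not tested. Hoxb7, Hoxd10 and Osr2 had r between 0.10 and 0.42 over the 19 libraries. Between the groups r ran from −0.48 for Hoxa13 and Osr2 to 0.34 for Hoxa13 and Hoxd10. The summed smooth muscle markers had r of 0.30, 0.51 and 0.51 with Hoxa7, Hoxa9 and Hoxa13 over these 19 libraries, and the colon epithelium markers −0.43, −0.47 and −0.38. The enteric neuron and glia markers had 0.45, 0.57 and 0.54 with these 3 genes and 0.68 with Hoxd10. Each of these sums rests mostly on the genes of highest level in its list. The part of tissue makeup in the relation was not tested.

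**Figure D5:**
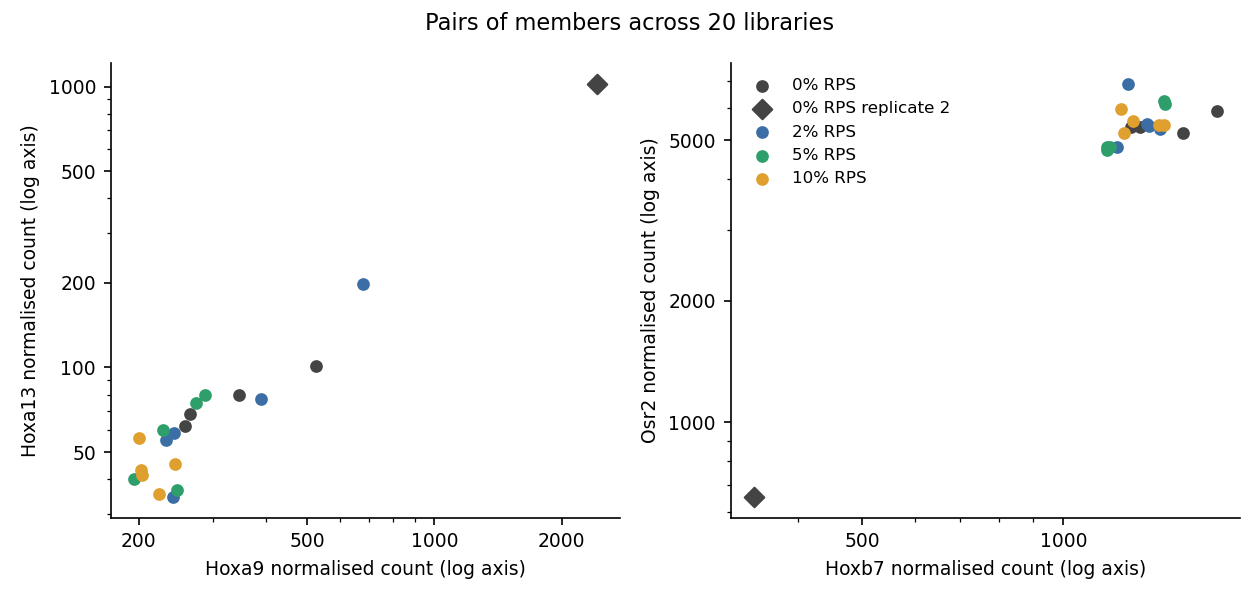
Normalised counts (log axes) of Hoxa13 against Hoxa9 and of Osr2 against Hoxb7 in the 20 libraries, coloured by diet, with replicate 2 of the 0% RPS diet as a diamond. The HoxA pair keeps a slope without the diamond (r = 0.87 over 19 libraries), and the other pair forms a cloud (r = 0.42).

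The genes most like each member over all 20 libraries, by Pearson r among 12329 genes with a mean of 10 or more, were partly cluster neighbours. For Hoxa9 they were Hoxa10 (0.97), Hoxa11os (0.96), Kif26a (0.94), Ano1 (0.91) and Clic4 (0.89). Hoxa13 had Hoxa11os (0.97), Hoxa10 (0.96), Ano1 (0.95), Kif26a (0.92) and Aspn (0.92), and Hoxa7 had Kif26a (0.95), Hoxa11os (0.91), Hoxa10 (0.90), Trim46 (0.88) and Ano1 (0.87). Ano1 encodes the calcium-activated chloride channel of interstitial cells of Cajal, Kif26a a kinesin needed in the enteric nervous system, and Aspn the matrix proteoglycan asporin. Kif26a, Hoxa11os, Hoxa10 and Ano1 were thus named for all 3 HoxA members.

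Hoxb7 had Hoxb6 (0.97), Rnf186 (0.95), Ugt8a (0.95), Ceacam18 (0.94) and Hoxb8 (0.93). Hoxd10 had Ceacam18 (0.97), Hoxd9 (0.96), Rnf186 (0.95), Ggt1 (0.92) and Nags (0.92). For Osr2 they were Ceacam18 (0.95), Cyp2c66 (0.94), Ugt8a (0.94), the calcium binding protein S100g (0.94) and Ggt1 (0.94). All of these were lower in replicate 2 of the 0% RPS diet than the median of the other 19, with a log2 ratio of −5.70 for S100g and −3.84 for Ugt8a.

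Over the 19 libraries without replicate 2, the lists of the HoxA members kept names and the others did not. Hoxa9 kept Hoxa10 (0.90), Hoxa11os (0.86) and Kif26a (0.82), joined by Zfp512b (0.82) and Rbfox2 (0.81). Hoxa13 kept Aspn (0.94), Hoxa11os (0.89), Ano1 (0.89) and Hoxa10 (0.86), joined by Jam2 (0.86). Hoxa7 kept Kif26a (0.83), beside Dync2i2 (0.85), Jkamp (0.75), Rcsd1 (0.74) and the cholecystokinin receptor Cckar (0.73). Hoxb7 now had Ntn4 (0.87), Irf2bpl (0.86), its neighbour Hoxb5 (0.85), Peli2 (0.85) and Erbb2 (0.84). Hoxd10 had Evc (0.87), Mxra8 (0.85), Gm10134 (0.82), the angiotensin receptor Agtr1a (0.82) and Hspa2 (0.80). Osr2 had Dnase1l1 (0.86), Dcaf6 (0.82), H2-T23 (0.82), Adk (0.81) and Pgrmc1 (0.81). These names are the top of a ranking over 12329 genes and are given as a description.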

How the data were processed

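PC RNA was made into 20 TruSeq Stranded mRNA libraries and sequenced as single reads of 50 bases. The authors trimmed reads at Q30, mapped them to GRCm39 in CLC Genomics Workbench and deposited raw counts for 12701 genes by Ensembl ID. The annotation, the use of strand, the treatment of reads with several matches and the rule by which genes were kept are not given in the sources used here. Of the IDs, 12682 matched GENCODE M39, from which symbols, exon lengths and sequences were taken; the sequences of Hoxa7, Hoxa9 and Osr2 are not reported here. Totals ran from 20581013 to 35083751 counts, so 3 counts, the floor for a gene seen at 0, correspond to 0.0855 to 0.146 CPM, which covers counting error only.

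DESeq2 1.42.0 was fitted to the whole table in R 4.3.3, with diet as the only term and all 20 libraries in 1 fit. The methods of the study name DESeq2 and the thresholds used here, but no model formula. A call needed p, adjusted by Benjamini-Hochberg, to be at most 0.05 and the fold at least 1.5. edgeR 4.0.16 (quasi-likelihood test) was the alternative. The script was tested on simulated data. Alternatives were TMM factors, a filter of 10 counts in 5 libraries, other filters and folds, fits on 2 diets, and each library left out. Correlations used log2(normalised count + 1).

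The members, the gene lists and the tests were chosen with earlier results of these data known. Genes were named by this rule: all members, other Hox genes called against 0% RPS or at the highest or lowest level per exon length, the 5 genes with the highest r for each member, and up to 4 called genes per list. Genes named beside them, such as further Hox genes, Fabp6 or Car1, were chosen after their values were seen. Squamous and anal canal markers had 0 of 7 genes in the table, so that list gave no value. The labels give no replicate numbers, and replicates are numbered 1 to 5 in order of accession within a diet. The labels do not say whether libraries came from separate animals, and p-values measure the spread between these samples.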

Additional observations from a re-analysis of the deposited data

Results flagged for a closer look

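Of the 24 groups of 5 libraries (6 genes in 4 diets), 5 had a highest or lowest library whose gap to the next took more than 0.71 of the range of the group, Dixon's limit for 5 values. By chance this happens in about 1 in 20 groups, and the groups of different genes share the same libraries. The 6 genes were chosen because replicate 2 of the 0% RPS diet stood apart in them, so its part of the count was fixed by that choice and is no test. Replicate 2 of the 0% RPS diet gave 4 of them, with a normalised count of 1619 for Hoxa7, 2422 for Hoxa9 and 1024 for Hoxa13, all the highest, and of 652 for Osr2, the lowest. In the same library Hoxb7 and Hoxd10 were lowest too, but their gaps were under the limit. The gaps were taken on normalised counts without logs, where a low value can lie less far out than a high one. The remaining one was Hoxa13 at 198 in replicate 1 of the 2% RPS diet.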

How the results depend on the processing

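The call of 2 members and 3 Hox genes as lower at 10% RPS held under TMM factors, the filter on low counts, no independent filtering, no Cook's filtering (which added Hoxa13) and folds of 1 or 2, with Hoxa5 lost at 2. It came to 0 members and 0 Hox genes in edgeR, in the fit of only those 2 diets, without 3 libraries with numbers in their labels far from those of the rest (replicate 5 at 2% and replicates 4 and 5 at 10% RPS), and in edgeR without replicate 2 of the 0% RPS diet, an alternative chosen after seeing the data. In edgeR with all libraries, 3 of 6 members and 8 of 21 Hox genes were lower at an unadjusted p under 0.05, beside 8.65% of all genes, and the members were chosen on these values. Leaving out 1 library at a time gave 0 to 2 members and 0 to 6 Hox genes at 10% RPS, and 0 to 1 members and 0 to 2 Hox genes at 5% RPS, the latter without replicate 1 or 3 of the 0% RPS diet. Counts at 2% RPS and for 10 against 2% RPS were 0 throughout. Over all genes, 113 of 12321 were called at 10% RPS with all libraries and 201 of 12327 without replicate 2 of the 0% RPS diet. The shares in the other fits are not given here, so nothing is read from how the counts moved. The 4 slopes became 2 without replicate 2, 1 over the 2, 5 and 10% diets and 0 in edgeR. Log2 fold changes of Hoxa7, Hoxa9 and Hoxa13 moved by more than 1 SD (of log2 values around the diet means, over all 20 libraries) in fits without replicate 2 and in no other. Those of the other 3 members moved by less than that SD, which includes replicate 2 itself, but by enough to turn some directions. Apart from that library, the causes of the lost calls were not tested. With the longest transcript in place of all exons, the order of the 6 members by level was kept. No paired analysis was possible because the labels give no replicate numbers. With 5 libraries a diet, and Hoxa13 at 33 to 181 raw counts in 19 libraries, small differences would be missed.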
